A study of Homo sapiens with 17 samples.

Results

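CDK14, its antisense gene AC002456.2 and STEAP1 are neighbours on the long arm of chromosome 7. After depletion of MED25 or ETV4 in PC3 prostate cancer cells, CDK14 and AC002456.2 transcripts were lower with both shRNAs against each target. STEAP1 was listed as lower with 1 shRNA against each target and was not listed with the other. The 3 genes were chosen by symbol, with earlier results of these data known, out of 1400 genes listed in at least 1 of 4 deposited comparisons. Their listing and ratios in these same tables led to the choice, so those values are given as a description. PC3 is an established human prostate cancer cell line, infected here with lentivirus carrying MED25 shRNA A or B or a luciferase control shRNA, or with retrovirus carrying ETV4 shRNA A or B or a control shRNA. RNA was taken on day 7. The knockdowns are called MED25 A and B and ETV4 A and B below. Each of the 4 had 3 libraries, the lentiviral control had 3 and the retroviral control had 2. The series design text calls the control an empty vector, so whether both controls carried an shRNA is uncertain. Each value below is the log2 ratio of 1 knockdown over the control of its virus, from the authors' deposited tables. Which side is the control was read from the library numbers in the table headers and from the sign of the targeted gene. Those tables hold 1 ratio and 1 score per gene and comparison, so no value per library, no depth and no spread between replicates can be given, and no difference below was tested. The tables hold no expression level, so the cells could not be checked against markers of the prostate epithelium.

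MED25 is a subunit of Mediator, the complex that links transcription factors to RNA polymerase II, and ETV4 is an ETS-family transcription factor of the PEA3 group, whose members bind MED25. CDK14, also known as PFTK1, is a cyclin-dependent kinase that works with cyclin Y at the plasma membrane and phosphorylates the Wnt co-receptor LRP6 during mitosis. STEAP1 is a multi-pass membrane protein abundant on prostate cancer cells and a target of antibody and T-cell therapies. Antisense genes such as AC002456.2 make long non-coding RNAs from the strand opposite a coding gene, and many start close to that gene's promoter. No function is assigned to AC002456.2 here.

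The name AC002456.2 needs care. The tables pair it with the identifier ENSG00000223969, which GENCODE release 29 calls AC002456.1 and classes as antisense. In that release the name AC002456.2 belongs to ENSG00000251154, an unprocessed pseudogene on the strand of CDK14 that none of the 4 tables lists. All matching below is by identifier, and the name AC002456.2 is kept as the tables print it. Release 29 is on GRCh38 while the submitters' processing notes name hg19, and the sources used here do not name the authors' annotation.

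The antisense gene lies across a start of CDK14. GENCODE 29 gives it 3 transcripts of 9 exon records in all, covering 616 bases. None of these records overlaps an exon of any of the 15 annotated CDK14 transcripts, so the shared exonic length is 0 bases. The start of 1 protein-coding CDK14 transcript falls inside the antisense gene. Of the 3 antisense transcripts, 2 begin within 1000 bases upstream of that start and run away from it, and the other begins in the first intron of that CDK14 transcript. Another 5 CDK14 transcripts begin further upstream and have the antisense exons inside an intron, and the other 9 begin downstream of the antisense gene. Reads from spliced CDK14 and spliced AC002456.2 would therefore fall on different bases of this annotation. Intronic reads of the upstream CDK14 transcripts would fall on antisense exons if counting ignored strand, and their part in the values was not tested. The first exon of 1 of the 2 antisense transcripts that begin upstream of the CDK14 start (GRCh38, minus strand, chr7:90595733-90595890) is shown because it is the antisense end that faces this start. It is printed 5′ to 3′ along the antisense RNA.
First exon: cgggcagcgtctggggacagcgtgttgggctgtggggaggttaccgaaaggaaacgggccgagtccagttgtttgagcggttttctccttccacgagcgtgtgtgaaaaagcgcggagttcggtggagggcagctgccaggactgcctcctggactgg

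**Figure D1:**
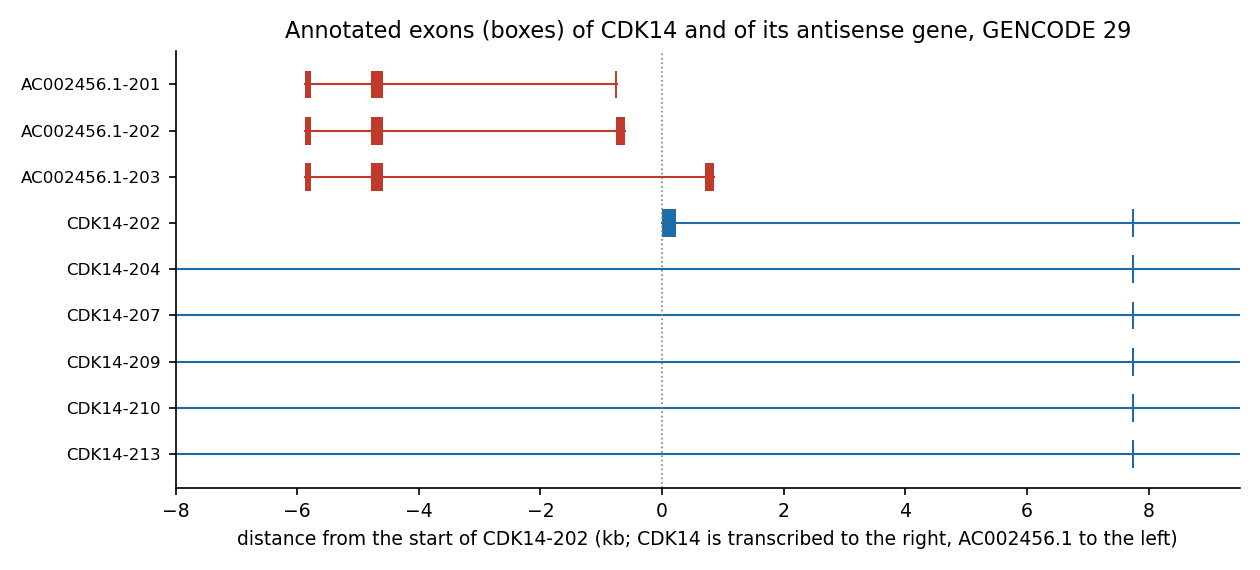
Annotated exons (boxes) and introns (lines) of AC002456.1, listed in the tables as AC002456.2, and of the 6 CDK14 transcripts that start within or upstream of it, as distance in kb from the CDK14 start that lies inside the antisense gene, in GENCODE 29. The 3 antisense transcripts share their middle exon, and no antisense box stands above a CDK14 box.

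STEAP1 has a close copy, STEAP1B, on the short arm of the same chromosome. Their RefSeq promoter windows, 250 bases before to 50 after the annotated start, differ at 10 of 300 positions, an identity of 96.7%. Of the 1622 distinct 50-base words in the annotated STEAP1 transcripts, 347 (21.4%) also occur in STEAP1B transcripts, so the STEAP1 values are uncertain to the extent that reads were shared between the copies. No table lists STEAP1B. The antisense gene STEAP2-AS1 spans STEAP1 on the opposite strand, with 0 shared exonic bases in GENCODE 29, and is in none of the tables either. For AC002456.2, 0 of 581 such words occur in any other annotated gene, and for CDK14 152 of 7144 (2.13%) do, each in its upstream neighbour CLDN12.

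The STEAP1 and STEAP1B windows are shown for the ETS-type core CCGGAA, the short sequence that ETS factors such as ETV4 bind. In the STEAP1 line (GRCh38.p14, plus strand, chr7:90154219-90154518) the capitals mark 2 overlapping matches, 1 on each strand, which begin at positions 145 and 147 counted from the 5′ end. In the STEAP1B line (GRCh38.p14, minus strand, chr7:22500139-22500438) the capitals mark the 10 positions that differ from STEAP1. One of them, G149C (STEAP1 base first), lies inside the matches, and the STEAP1B window has 0.
STEAP1: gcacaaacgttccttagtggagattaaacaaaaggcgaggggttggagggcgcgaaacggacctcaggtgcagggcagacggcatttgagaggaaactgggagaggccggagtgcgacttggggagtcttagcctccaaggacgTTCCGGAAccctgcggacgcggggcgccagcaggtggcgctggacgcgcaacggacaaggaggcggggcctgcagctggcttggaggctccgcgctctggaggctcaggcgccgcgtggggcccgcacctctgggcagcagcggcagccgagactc
STEAP1B: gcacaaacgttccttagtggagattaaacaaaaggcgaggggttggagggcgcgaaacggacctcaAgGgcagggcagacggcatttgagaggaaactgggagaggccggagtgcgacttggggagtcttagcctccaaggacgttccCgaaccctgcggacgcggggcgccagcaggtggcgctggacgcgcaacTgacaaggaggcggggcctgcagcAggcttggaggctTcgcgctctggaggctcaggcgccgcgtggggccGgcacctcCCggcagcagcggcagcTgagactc

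CCGGAA is present on either strand in 17.2% of the 35116 promoter windows of RefSeq, and the windows of 2 downstream CDK14 starts have 0 matches. The shorter core GGAA is in 95.5% of them, with 4 matches for STEAP1, 3 for STEAP1B, and 1 and 3 for those CDK14 windows. The core CAGGAA had 0 matches in these 4 windows and is in 28.4% of all windows. The AP-1 site, TGANTCA, likewise had 0 and is in 7.71%, and the TATA element, spelled TATAAA, had 0 and is in 11.5%. These matches describe letters only, and no binding was measured. No window was matched for AC002456.2, nor for the CDK14 start inside it.

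AC002456.2 was among the most strongly lowered genes with every shRNA. In the authors' deposited tables its log2 ratio was −2.31 with MED25 A, −1.71 with MED25 B, −1.85 with ETV4 A and −1.56 with ETV4 B. These ratios correspond to 20.1%, 30.6%, 27.8% and 33.9% of control, a decrease of 2.95-fold to 4.97-fold. In RNA from whole cultures, less RNA per cell and fewer cells that make it cannot be told apart. All 4 values lie beyond a 2-fold decrease, which 24.0%, 20.1%, 23.2% and 20.4% of all genes listed in those tables reached. Ranked by decrease, AC002456.2 was number 4 of 786 genes, 11 of 374, 12 of 495 and 6 of 98. Ranked by the authors' adjusted-p score it stood lower in each table, at number 13, 31, 15 and 7. Long non-coding genes were typed by GENCODE 29, which matched 752 of 786 genes, 352 of 374, 483 of 495 and 98 of 98. Among those so typed, AC002456.2 was the lowest with both MED25 shRNAs, of 30 with shRNA A and 24 with shRNA B. With ETV4 A it was number 3 of 44, and with ETV4 B number 2 of 6. Its score was 391, 248, 450 and 298 in the authors' deposited tables. The median log2 ratio of the listed non-coding genes so typed was −0.82, −0.79, −0.83 and −0.89 in the same order.

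CDK14 was lowered less, by under 2-fold in each comparison. In the authors' deposited tables its log2 ratio was −0.96 with MED25 A, −0.77 with MED25 B, −0.86 with ETV4 A and −0.64 with ETV4 B. Between 51.3% and 64.2% of the control level remained. By decrease CDK14 stood at number 210 of 786, 184 of 374, 181 of 495 and 78 of 98, so that 26.6%, 48.9%, 36.4% and 78.6% of the listed genes were lower still. Ranked by the authors' adjusted-p score instead, it stood higher in each table, at number 56, 69, 79 and 44. The score was 204, 133, 165 and 81.0 in the authors' deposited tables, where the medians over all listed genes were 67.6, 63.4, 63.6 and 66.7. No source used here gives the scale of the score, and a larger one is read as a smaller adjusted p.

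STEAP1 was listed with the A shRNA of each target and with neither B shRNA. In the authors' deposited tables it was at −0.88 with MED25 A, or 54.4% of control, and at −0.69 with ETV4 A, or 62.2% of control. It ranked 279 of 786 and 357 of 495 by decrease. Its score was 80.7 and 59.6 in the authors' deposited tables, and STEAP1 minus CDK14 was 0.08 and 0.18 log2 units, STEAP1 being the less lowered of the pair in both. A gene absent from these tables was not lowered, or missed their minimum fold or score, and cannot be called unchanged. The B shRNAs left less of the targeted transcript: MED25 stood at 51.6% of control with shRNA A and 30.5% with shRNA B, and ETV4 at 26.1% and 15.8%, from the authors' deposited tables. The A tables were also the longer ones. Of the 1400 genes, 77 (5.50%) had this listing of both A shRNAs and neither B shRNA.

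**Figure D2:**
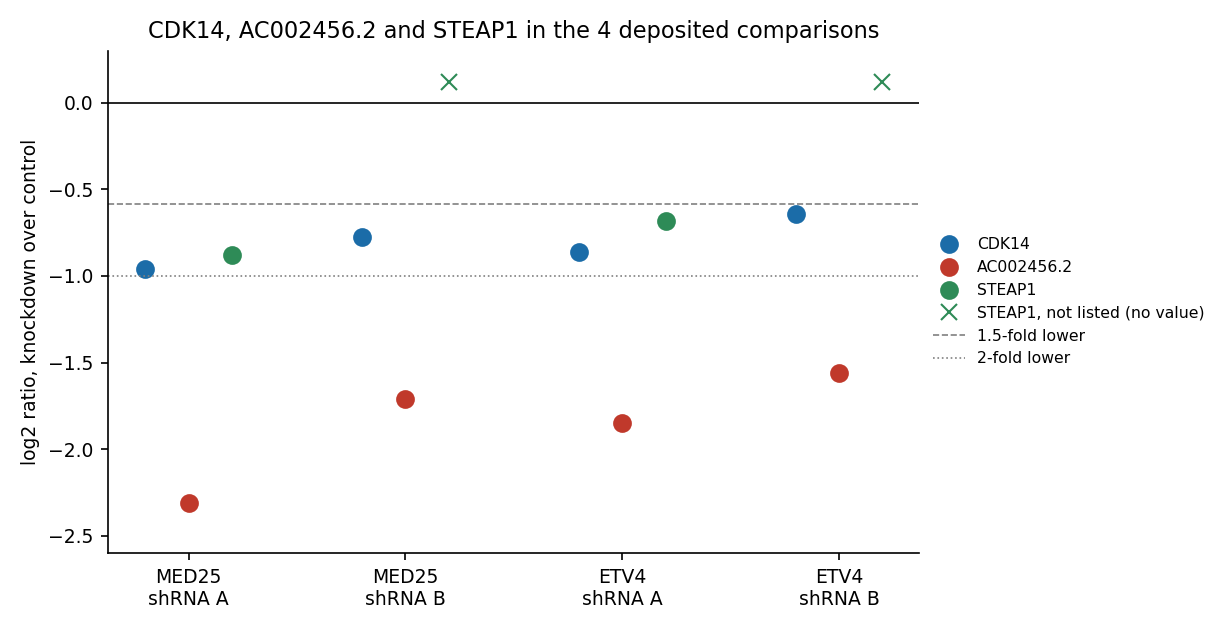
Log2 ratio of knockdown over control for each gene and comparison, 1 point per deposited value, with no error bar because the tables carry none. AC002456.2 lies between −2.31 and −1.56 and CDK14 between −0.96 and −0.64, and crosses mark the 2 tables that do not list STEAP1.

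**Figure D3:**
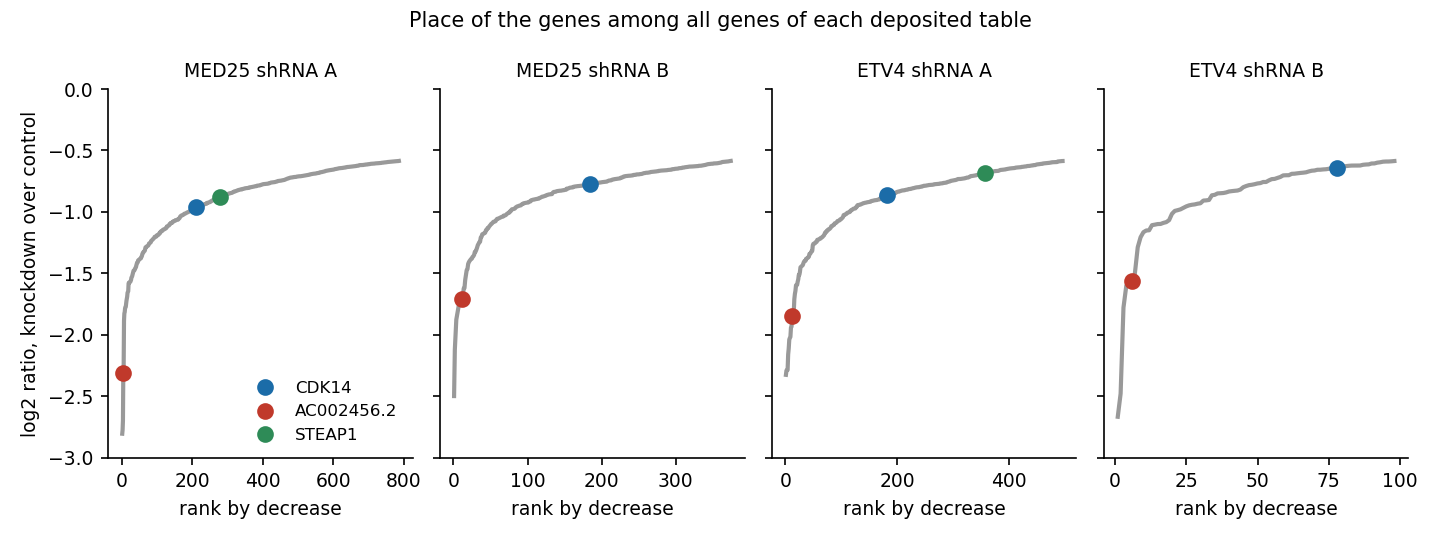
Log2 ratio of knockdown over control against rank by decrease for all genes of each table (grey line), with the 3 genes marked. AC002456.2 sits on the steep left end in all 4 panels, at number 4, 11, 12 and 6, while CDK14 and STEAP1 sit on the flat part.

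CDK14 and AC002456.2 were 2 of the 10 genes listed as lower in all 4 tables, which is 0.714% of the 1400. They stood near opposite ends of those 10 genes. By mean log2 ratio AC002456.2 was number 2, at −1.86, and CDK14 was number 10, at −0.81. CDK14 also had the narrowest span between its comparisons, 0.32 log2 units, against 0.75 for AC002456.2 and 1.89 for NOG, the widest. Each table lists only genes lowered at least 1.5-fold, which bounds the span of a gene as little lowered as CDK14.

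Both genes had the same order of shRNAs, with MED25 A lowest, then ETV4 A, MED25 B and ETV4 B. None of the other 8 genes had that order, but SDC1 and HEY1 shared another one, so a shared order was not particular to this pair. The A value minus the B value of CDK14 was −0.19 for MED25 and −0.22 for ETV4 in log2 units, and that of AC002456.2 was −0.60 and −0.29. The A value was also the lower one for 58.8% of the 153 genes listed with both MED25 shRNAs and for 71.9% of the 57 listed with both ETV4 shRNAs, so that direction is common in these tables. The 2 comparisons of a target share their control libraries. After each gene's own mean was taken away, the profile of AC002456.2 was the closest to that of CDK14 among the 9 other genes, with a mean absolute difference of 0.15 log2 units over 4 comparisons. ANK2, a membrane ankyrin gene, was nearly as close, at 0.16.

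**Figure D4:**
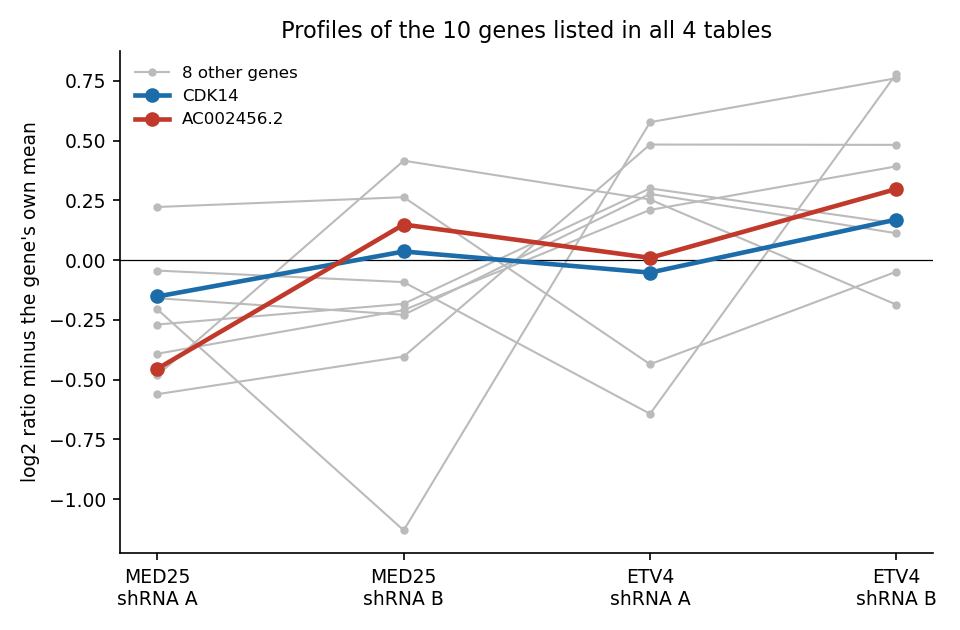
Log2 ratio minus the gene's own mean over the 4 comparisons, for the 10 genes that all tables list. The lines of CDK14 and AC002456.2 are both lowest with MED25 A and highest with ETV4 B, AC002456.2 with the wider span (0.75 against 0.32 log2 units). RASL11A has the same lowest and highest comparison, but none of the 8 other genes has the full order of the pair.

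On the values themselves, without that centring, other genes were closer. For CDK14 the smallest mean absolute differences were those of RASL11A, a small GTPase gene (0.27), the Notch effector HEY1 (0.31), the cytokine-signalling inhibitor SOCS2 (0.36), the heparan sulfate proteoglycan gene SDC1 (0.52) and the BMP antagonist NOG (0.61). For AC002456.2 they were ANK2 (0.31), the RNA-binding protein gene IGF2BP1 (0.43), the potassium channel gene KCNK15 (0.45), SDC1 (0.54) and SOCS2 (0.70). For STEAP1, compared over its 2 comparisons with 111 genes, they were the Notch ligand JAG1 (0.0074), the histone gene HIST1H4K (0.031), CPS1, an enzyme of ammonia disposal (0.034), ARHGEF3 (0.043) and TPBG, an oncofetal surface glycoprotein (0.053). In the authors' deposited tables JAG1 was at −0.87 with MED25 A and −0.70 with ETV4 A, and neither B table lists it.

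The antisense transcript was lowered more than CDK14 in every comparison. AC002456.2 minus CDK14 was −1.35 log2 units with MED25 A, −0.94 with MED25 B, −0.99 with ETV4 A and −0.92 with ETV4 B, a further 1.89-fold to 2.55-fold. Among the listed genes, 8 pairs of a long non-coding and a protein-coding gene on opposite strands overlap in GENCODE 29 and share a table. AC002456.2 with CDK14 was 1 of them and the sole one listed together in all 4, but it was chosen with its listing known. A pair has a value only where both of its genes were at least 1.5-fold lower, so pairs with a less lowered gene are missing. The other 7 pairs gave 10 values, from −1.27 to 0.38 with a median of −0.14, and the non-coding gene was the lower one in 6 of the 10. One of the 10, for the non-coding gene RP11-59D5__B.2 with EYS under ETV4 A, went below −0.92. The SOCS2 pair, whose exons do overlap, had its antisense gene less lowered than SOCS2, by 0.38 log2 units with ETV4 A, 0.19 with ETV4 B and 0.13 with MED25 B.

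**Figure D5:**
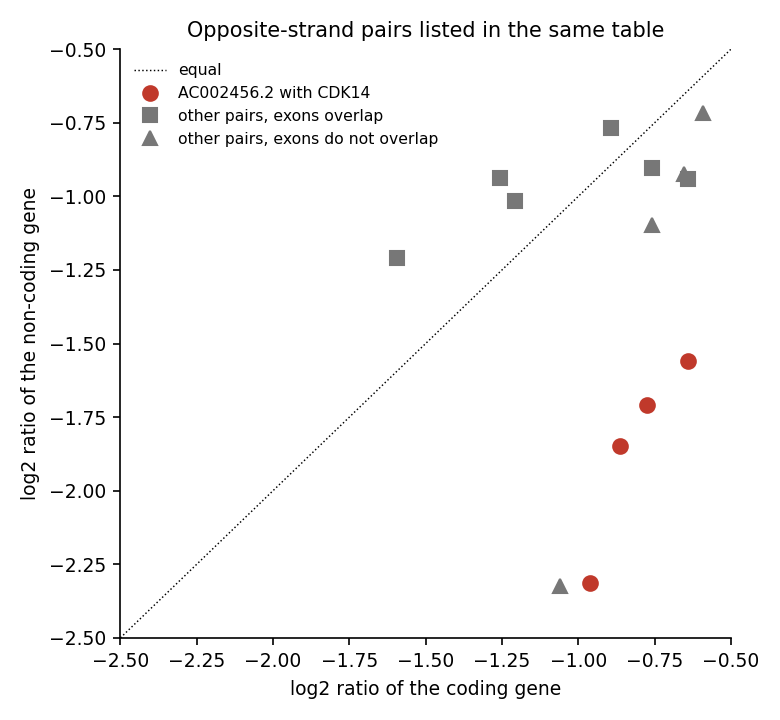
Log2 ratio of a non-coding gene against that of the protein-coding gene on the opposite strand, 1 point per pair and deposited table. The 4 points of AC002456.2 with CDK14 lie below the line of equal values, with differences of −1.35 to −0.92 log2 units, and 9 of the 10 other points lie closer to it or above it.

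The genes around the 3 were looked up in the same tables. Release 29 places 5 protein-coding genes with a start between STEAP1 and CDK14: STEAP2, the STEAP1 relative with metalloreductase activity, CFAP69, FAM237B, GTPBP10 and the claudin gene CLDN12. None of the 5 is in any table, where 7.69% of the 910 protein-coding genes of chromosome 7 are in at least 1. The nearest listed genes outside are RUNDC3B on the STEAP1 side and CDK6 on the CDK14 side, and of the 28 protein-coding genes between those, CDK14 and STEAP1 are the 2 listed. RUNDC3B was at −1.40 with ETV4 A and −1.09 with ETV4 B in the authors' deposited tables, and CDK6, the kinase partner of D-type cyclins, at −1.10 with ETV4 B. Neither is in a MED25 table.

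A wider list of 56 genes of this chromosome band, the 3 genes included, had 4 members in the table of MED25 A, 2 with MED25 B, 8 with ETV4 A and 5 with ETV4 B. The last 2 tables held the semaphorin genes SEMA3C (−0.90) and SEMA3D (−0.60), the interferon-inducible genes SAMD9 (−0.59) and SAMD9L (−0.68) with ETV4 A, and the protease inhibitor TFPI2 (−0.83) with ETV4 B, in the authors' deposited tables. GNG11, a G-protein subunit gene, was at −0.62 with MED25 A in the authors' deposited table. Without the 3 genes, which were chosen for their values, 1, 0, 5 and 3 members were left. In the same order, 3.74%, 1.43%, 3.19% and 1.21% of the 910 protein-coding genes of chromosome 7 were listed, and the difference was not tested. The band list also holds non-coding genes, STEAP2-AS1 among them, while those shares are over protein-coding genes. The median log2 ratio of the 5 with ETV4 A was −0.68 and that of the 3 with ETV4 B was −1.09, against −0.79 and −0.77 over all genes of those tables.

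The tables list 1224 (6.14%) of the 19951 protein-coding genes of GENCODE 29, expressed or not, at least once. The share was 3.44% for MED25 A, 1.61% for MED25 B, 2.17% for ETV4 A and 0.456% for ETV4 B. The counts of relatives and partners of CDK14 are small and are given beside these shares with no test. Of 20 other cyclin-dependent kinase genes, 1 was listed with MED25 A and 1 with ETV4 B. The first was CDK16, a PCTAIRE kinase that cyclin Y also activates, at −0.88 with a score of 312, and the second was CDK6, at −1.10, in the authors' deposited tables. Of 19 cyclin and binding-partner genes, CCND1 (cyclin D1) was the one listed, at −0.94 with MED25 A in the authors' deposited table. Neither CCNY, which encodes cyclin Y, nor LRP6 is in any table.

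Of 64 Wnt pathway genes, 7 were listed in at least 1 table, against 6.14% of all protein-coding genes. In the authors' deposited table for MED25 A these were the receptor genes FZD8 (−1.72), FZD4 (−0.94) and FZD6 (−0.63) and the scaffold gene AXIN1 (−0.67). In the authors' deposited table for MED25 B they were the ligand genes WNT7A (−0.94) and WNT10B (−0.78) and ZNRF3 (−0.67), a ligase that removes Wnt receptors. With ETV4 A it was FZD4, at −1.12 in the authors' deposited table, and with ETV4 B none. The scores of WNT10B and ZNRF3 were 29.5 and 38.9 in the authors' deposited table. At a score of at least 50, 1 of the 3 genes with MED25 B was left, while the 4 with MED25 A and the 1 with ETV4 A stayed. No Wnt gene was listed with both MED25 shRNAs, and of all 1007 genes listed with either, 153 (15.2%) were listed with both. The median of the listed genes was −0.80 and −0.78 for MED25 A and B, against −0.78 and −0.77 over all listed genes. FZD8 was the 1 Wnt gene lowered 2-fold with MED25 A, where 24.0% of listed genes were. Exons of FZD4 and PRSS23 overlap on opposite strands, so the FZD4 values are uncertain if counting ignored strand.

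STEAP1 was the one of 5 STEAP family genes in any table; STEAP1B, STEAP2, STEAP3 and STEAP4 were in none. Of 22 prostate-enriched or prostate cancer genes, 3 were listed in at least 1 table, STEAP1 among them by choice. These 22 include the non-coding genes PCA3 and SCHLAP1, while the share of 6.14% is over protein-coding genes. STEAP1 and AMACR, a peroxisomal racemase used as a prostate cancer marker, were both listed with MED25 A and ETV4 A. AMACR was at −0.69 and −0.62 with scores of 48.5 and 27.1 in the authors' deposited tables. The prostate transglutaminase gene TGM4 was at −0.88 with MED25 B, with a score of 25.3, in the authors' deposited table. KLK3 (prostate-specific antigen) and FOLH1 (prostate-specific membrane antigen) were in none, and without levels a gene that is not expressed looks the same as one that did not change.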

How the data were processed

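The submitters' processing notes name Novoalign 3.08.02 and hg19. Counter, strand setting, annotation, scaling and test were not named there. Per the file headers, the authors deposited 1 table per shRNA with a log2 ratio and an adjusted p for each gene. The adjusted p in the deposited tables exceeds 1 (minimum 20.1 to 20.3) and was treated as a score of unstated scale, used to rank and filter genes. Each table names 2 library numbers. The shared number within a target was taken as its control, and the sign of the targeted gene helped set the direction, so MED25 ratios were turned round. So read, every listed gene was at least 1.5-fold lower in the knockdown. Higher genes were not analysed here.

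The members and the gene lists were chosen with earlier results of these data known. Named genes are the 3 members, the targets in their own tables, listed genes of the 6 lists, the 5 genes most like each member by mean absolute difference of log2 ratios over at least the same tables, and the nearest listed neighbours. Genes in the comparison of opposite-strand pairs, PRSS23 and the unlisted genes named were chosen after their values were seen. Ensembl identifiers linked 1350 of 1400 genes to GENCODE release 29, and list symbols were matched also through RefSeq synonyms. STEAP1 and CDK14 matched the RefSeq promoter table (GRCh38.p14). The exon sequence comes from the GENCODE transcripts; the sequence of the shared antisense exon is not reported here. Motifs were searched on both strands with overlaps. Motif search and likeness were tested on simulated data. Python 3.11.15, pandas 2.3.3, numpy 2.4.6 and matplotlib 3.10.9 were used. Alternatives were a score of at least 50, an absolute log2 ratio of at least 1, protein-coding genes alone, ranks by score, 2 other measures of likeness and the last 150 bases of a promoter window.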

Additional observations from a re-analysis of the deposited data

How the results depend on the processing

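With a score of at least 50, CDK14 and AC002456.2 stayed in 4 tables and STEAP1 in 2. With an absolute log2 ratio of at least 1, AC002456.2 stayed in 4 tables, while CDK14 and STEAP1 stayed in 0. The share of listed genes lowered at least 2-fold became 30.4% with MED25 B and 36.3% with ETV4 A at a score of at least 50. The genes dropped from those tables were therefore lowered 2-fold less often than the genes kept. With MED25 A and ETV4 B the share rose less. Ranks of CDK14 and STEAP1 among protein-coding genes alone stayed within 1.5 times the ranks given, and ranks by score moved by over 1.5 times in 6 of 10 cases. Of the 5 genes most like each member, 3 for CDK14, 2 for AC002456.2 and 1 for STEAP1 were shared with the list by shape alone. Both lists came from 9 genes for CDK14 and AC002456.2, so some sharing had to occur, and from 111 for STEAP1. In the last 150 bases of the promoter windows STEAP1 had 0 matches to CCGGAA. No paired analysis was possible because the tables hold no values per library, and for the same reason no replicate could be left out. Direction rests on the reading of the file headers, and the depth of the libraries is unknown.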
